A study of Mus musculus with 58 samples.

Results

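The 7 GABA-A receptor subunit genes described here, Gabra2, Gabra3, Gabra4, Gabra5, Gabrb1, Gabrb2 and Gabrd, were taken by gene symbol from the 15171 genes of a read count table of mouse brain after controlled cortical impact (CCI), a model of traumatic brain injury (TBI). All 7 passed the filter on low counts in all 20 comparisons, with 124 to 14314 counts a mouse. The 58 mice, 3 months old at surgery, of both sexes and on a C57BL/6 background, carried human APOE3 (E3) or APOE4 (E4) in place of mouse Apoe in every tissue, together with 2 functional copies of the cholesterol transporter gene Abca1 (Abca1+/+) or 1 (Abca1+/-). TBI mice received an impact on the left parietal cortex through a craniotomy, and sham mice the same anesthesia and craniotomy with no impact, so that both arms share the opened skull. Hippocampus and cortex at the injury site were frozen together 14 days later, and total RNA was sequenced, 1 library a mouse. The groups held 8 sham and 8 TBI mice for E3/Abca1+/+, 7 and 6 for E3/Abca1+/-, 7 and 7 for E4/Abca1+/+, and 7 and 8 for E4/Abca1+/-. The labels do not say how mice were spread over litters or sequencing runs, so the spread between these samples may hold technical as well as animal differences.

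GABA-A receptors are pentameric chloride channels opened by GABA, the main inhibitory transmitter of the adult brain, and most hold α, β and either γ or δ subunits. Many receptors with γ subunits are held at synapses by the scaffold gephyrin and give brief phasic currents. Those with δ subunits, joined mainly to α4 in the dentate gyrus, thalamus and cortex, lie outside synapses and give a steady tonic current. Among the members, Gabrd encodes the δ subunit. Gabrb1 and Gabrb2 encode β subunits, which form part of the GABA binding site and are needed for the receptor to reach the membrane. Gabra2 and Gabra3 encode α subunits of benzodiazepine-sensitive synaptic receptors, Gabra4 the α subunit most often paired with δ, and Gabra5 the α subunit of tonic receptors on hippocampal pyramidal cells.

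On the GRCm38 build of the mouse genome, as RefSeq places the genes, Gabra2 (chr5:70958392-71095849), Gabra4 (chr5:71569734-71658308) and Gabrb1 (chr5:71657921-72149572) lie in a single cluster. Gabrd lies at chr4:155384979-155398098, Gabra5 at chr7:57407669-57591016, Gabrb2 at chr11:42419515-42632591 and Gabra3 at chrX:72432676-72656919. Gabrb2 and Gabrb1 are read from the plus strand and the others from the minus strand. Gabra4 and Gabrb1 run head to head and overlap by 388 bases, where reads of one cannot be told from reads of the other without strand. RefSeq promoter windows were matched for 6 of the 7 members, 10 windows in all. Both strands of the 250 bases before each start were searched for 4 motifs. These were the GC box GGGCGG, which the factor SP1 binds. They were also the cAMP response element TGACGTCA and the EGR site GCGNGGGCG, both tied to neuronal activity. The last was the TATA box, with the letters TATAAA. The windows of 3 members are printed 5′ to 3′ with the matches in capitals, Gabrb2 and Gabra4 because their levels fell after injury and moved together across mice, and Gabra2 because it lies in the same cluster as Gabra4 and its difference did not pass. The Gabrb2 window (GRCm38.p6, chr11:42420190-42420439, plus strand), which ends at a RefSeq start inside the gene and lies in the first intron of a longer GENCODE transcript, is the only one of the 3 Gabrb2 windows with a match. The Gabra4 window (chr5:71658364-71658558, minus strand) leaves out the 55 bases nearest the start, which a GENCODE exon covers. The Gabra2 window is chr5:71095850-71096099, minus strand.
Gabrb2: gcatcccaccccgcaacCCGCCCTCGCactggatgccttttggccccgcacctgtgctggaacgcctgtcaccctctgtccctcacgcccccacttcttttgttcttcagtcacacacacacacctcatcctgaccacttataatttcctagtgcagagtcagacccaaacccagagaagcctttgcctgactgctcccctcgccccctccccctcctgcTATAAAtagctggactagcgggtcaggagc
Gabra4: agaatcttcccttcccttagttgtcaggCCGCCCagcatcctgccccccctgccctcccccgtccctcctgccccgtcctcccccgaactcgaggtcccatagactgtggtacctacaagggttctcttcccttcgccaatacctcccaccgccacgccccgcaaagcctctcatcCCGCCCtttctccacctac
Gabra2: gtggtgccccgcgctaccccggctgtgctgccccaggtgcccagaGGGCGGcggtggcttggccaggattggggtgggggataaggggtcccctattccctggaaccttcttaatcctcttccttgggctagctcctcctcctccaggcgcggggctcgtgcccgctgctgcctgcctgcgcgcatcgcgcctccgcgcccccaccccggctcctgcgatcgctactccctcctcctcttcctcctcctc

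In the Gabrb2 window a GC box and an EGR site overlap at the first run of capitals, and the TATA box starts 30 bases before the start. The Gabra4 window holds GC boxes 222 and 74 bases before the start, and the Gabra2 window holds one 205 bases before it. Of the 32851 RefSeq mouse windows of the same length, 32.7% held the GC box, 12.4% the TATA box, 1.55% the cAMP response element and 4.7% the EGR site. Of the members' 10 windows, 5 held none of these motifs, and the 2 Gabra3 windows with a match held a TATA box only. A match describes the letters of the window and is not evidence that the factor binds there.

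Total counts ranged from 4421308 to 37877346 a library, and Abca1+/- libraries were deeper, with a median of 18871445 counts (n = 28) against 8350020 (n = 30) for Abca1+/+. The sham and TBI labels were checked by Gfap and Aif1, markers of reactive astrocytes and of microglia, which were higher after TBI by 2.39 and 1.46 (log2). The tissue was checked by its markers: cortical genes were present in every library, while several hippocampal genes were low in 1. No check of the isoform, Abca1 copy or sex labels is given here. One library stood apart. In replicate 8 of the E4/Abca1+/- TBI mice, 7 of 10 hippocampal field markers were below, and 6 of 6 striatal markers above, all other 57 mice. Among the 7, Dsp was at 0.774 CPM and Lct at 1.83 CPM, against medians of 16.3 and 13.9 CPM in the other mice. The same library held the highest level of Gabrd, Gabra3 and Gabra4 and the lowest of Gabra5 and Gabrb1, so the injury differences that rest on it are given with and without it. The summed level of choroid plexus markers, genes of the tissue lining the ventricles, ranged from 10.8 to 1344 CPM in sham mice and from 11.8 to 2048 CPM in TBI mice. CPM are counts scaled to a library of 1000000 counts. In edgeR 0 of its 5 genes passed the test for injury, 0 had an unadjusted p under 0.05 and DESeq2 called 0.

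In sham mice, with each level divided by the gene's exon length so that genes can be compared, Gabrb2 had the highest level and Gabrb1 the lowest. Gabrb2 reached 109 ± 6.82 CPM per kb (SD, n = 29 mice), Gabra3 47.6 ± 2.84, Gabra5 36.9 ± 3.94, Gabra4 35.7 ± 2.09, Gabrd 25.8 ± 2.67, Gabra2 24.1 ± 4.73 and Gabrb1 2.25 ± 0.27. Neighbours in this order were apart in nearly every mouse, except Gabra5 and Gabra4, where Gabra5 was higher in 18 of 29 mice, and Gabrd and Gabra2, where Gabrd was higher in 17 of 29. The steadiest members between mice were Gabra3 and Gabra4, with coefficients of variation of 5.96% and 5.86%, and the most variable was Gabra2, at 19.6%. All further levels are CPM without division by length, with library sizes scaled by the trimmed mean of M values (TMM), and all changes are log2 fold changes from edgeR's quasi-likelihood test with Benjamini-Hochberg adjustment over all genes tested.

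**Figure D1:**
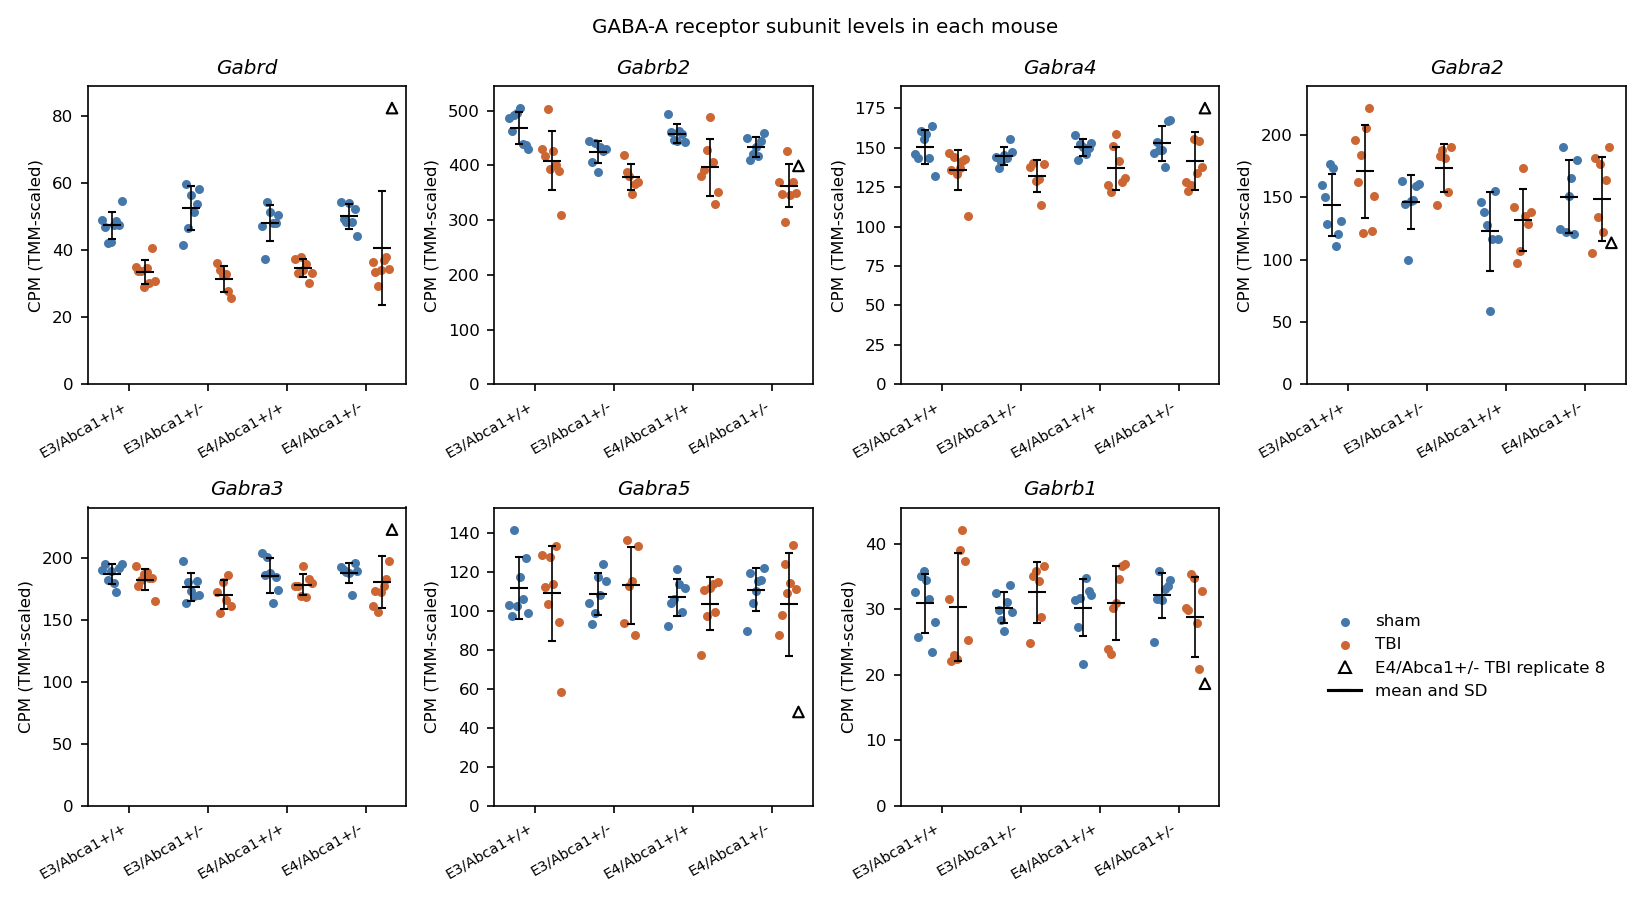
Level of each of the 7 subunit genes in every mouse, in CPM on a linear axis from 0, by genotype, with sham and TBI mice side by side, bars at the group mean and SD, and a triangle for replicate 8 of the E4/Abca1+/- TBI mice. Of the TBI mice 27 of 29 lie below all sham mice of their genotype for Gabrd, with the triangle at 82.5 CPM, and 24 of 29 for Gabrb2.

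The δ subunit gene had the largest fall of the members after TBI. In E3/Abca1+/+ mice, Gabrd ranged from 42.2 to 54.9 CPM in sham mice with a median of 47.6, and from 29.0 to 40.8 CPM after TBI with a median of 33.8. In E3/Abca1+/- mice the range was 41.6 to 59.8 CPM in sham (median 54.0) and 25.9 to 36.2 CPM after TBI (median 32.8). In neither E3 genotype did the lowest sham mouse reach down to the highest TBI mouse. In E4/Abca1+/+ mice Gabrd ranged from 37.6 to 54.5 CPM in sham (median 48.3) and from 30.4 to 37.9 CPM after TBI (median 34.1), and the groups met at 1 low sham mouse. In E4/Abca1+/- mice the range was 44.3 to 54.5 CPM in sham (median 49.3) and 29.2 to 82.5 CPM after TBI (median 35.6). The next highest of these TBI mice after replicate 8 was at 38.2 CPM, below every sham mouse of the genotype. Counted over the genotypes, 27 of 29 TBI mice had less Gabrd than all sham mice of their own genotype, and 1, replicate 8, had more.

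Gabrd passed the test in 3 of 4 genotypes. It fell by 0.52 (SE 0.07, adjusted p = 1.139e-05) in E3/Abca1+/+ mice, by 0.74 (SE 0.09, adjusted p = 2.626e-05) in E3/Abca1+/- mice and by 0.47 (SE 0.07, adjusted p = 0.0004007) in E4/Abca1+/+ mice. In E4/Abca1+/- mice its difference was -0.33 (SE 0.17, adjusted p = 0.1503, 95% interval -0.68 to 0.03) with all mice, and it fell by 0.56 (adjusted p = 3.589e-06) without replicate 8. Averaged over the 4 genotypes, Gabrd fell by 0.50 (SE 0.06, adjusted p = 2.923e-10). On the linear scale its fitted level dropped by 29.5%, and the mean went from 49.6 ± 5.14 CPM (SD, n = 29) to 35.4 ± 9.65 CPM (n = 29). Without replicate 8 Gabrd fell by 0.56 on average (adjusted p = 1.516e-18). Gabrd was the only member with sham and TBI mice fully apart in at least 1 genotype. It was apart in E3/Abca1+/+ (2.19% of genes tested were lower with no overlap there), in E3/Abca1+/- (3.42%) and, without replicate 8, in E4/Abca1+/- (4.62%). It was not apart in E4/Abca1+/+ (0.819%) or, with all mice, in E4/Abca1+/- (2.41%).

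Gabrb2, the most abundant member, fell by less and with more overlap. In E3/Abca1+/+ mice its level ranged from 429.8 to 504.7 CPM in sham (median 475.0) and from 308.5 to 503.4 CPM after TBI (median 409.3). In E3/Abca1+/- mice it ranged from 388.4 to 445.4 CPM (median 430.6) and from 348.2 to 418.3 CPM (median 374.8). The highest injured mice lay within the sham range in both, while most lay below it. In E4/Abca1+/+ mice it ranged from 442.0 to 493.7 CPM in sham (median 456.7) and from 329.8 to 488.8 CPM after TBI (median 391.3), and in E4/Abca1+/- mice from 409.2 to 458.6 CPM (median 433.8) and from 296.6 to 426.2 CPM (median 359.6). Of 29 TBI mice, 24 were below all sham mice of their genotype and 0 were above them. Gabrb2 fell by 0.21 (SE 0.07, adjusted p = 0.04015) in E3/Abca1+/+ mice, by 0.17 (SE 0.05, adjusted p = 0.01492) in E3/Abca1+/- mice and by 0.28 (SE 0.06, adjusted p = 0.001418) in E4/Abca1+/- mice. In E4/Abca1+/+ mice the difference was -0.21 (SE 0.07, adjusted p = 0.05071), just short of the threshold. Averaged over genotypes, Gabrb2 fell by 0.21 (SE 0.03, adjusted p = 3.836e-07), from 446.9 ± 28.0 CPM (SD, n = 29) to 386.9 ± 46.1 CPM (n = 29).

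The other β gene, Gabrb1, had medians of 31.6 CPM in sham mice (21.7 to 35.9) and 31.0 CPM in TBI mice (18.6 to 42.2). Injured mice spread to both sides of the sham range, 6 of 29 below all sham mice of their genotype and 9 above. The average difference of Gabrb1 was -0.01 (SE 0.06, adjusted p = 0.8957), with a 95% interval of -0.14 to 0.12. The log2 ratio of Gabrb2 to Gabrb1 within a mouse was 3.86 ± 0.18 (SD, n = 29) in sham mice and 3.68 ± 0.38 (n = 29) in TBI mice.

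Among the α subunit genes Gabra4, the usual partner of δ, was lower after injury by a small amount. Its level ranged from 132.2 to 164.0 CPM in E3/Abca1+/+ sham mice (median 150.7) and from 106.7 to 146.9 CPM after TBI (median 139.3). In E3/Abca1+/- mice the range was 136.8 to 155.3 CPM (median 143.8) against 113.8 to 140.5 CPM (median 134.0). Injured mice shared the lower part of the sham range in both. In E4/Abca1+/+ mice Gabra4 ranged from 142.0 to 158.3 CPM in sham (median 150.7) and from 121.6 to 158.9 CPM after TBI (median 130.5). In E4/Abca1+/- mice it ranged from 137.8 to 167.5 CPM (median 148.6) and from 122.6 to 175.1 CPM (median 135.8), the highest being replicate 8. Over the genotypes 13 of 29 TBI mice were below all sham mice of their own genotype and 2 above. The average change passed the test, a fall of 0.13 (SE 0.03, adjusted p = 0.0004068). In single genotypes the Gabra4 difference lay between -0.16 and -0.13 with adjusted p from 0.05874 to 0.1668, and none passed; without replicate 8 it fell by 0.19 (adjusted p = 0.02491) in E4/Abca1+/- mice. The log2 ratio of Gabra4 to Gabrd within a mouse was 1.60 ± 0.19 (SD, n = 29, 1.19 to 1.93) in sham mice and 1.98 ± 0.23 (n = 29, 1.09 to 2.43) in TBI mice. The lowest TBI value was that of replicate 8, without which the E4/Abca1+/- TBI mean went from 1.87 to 1.98. The ranges overlapped without it too, with a lowest value of 1.75 in E4/Abca1+/+ TBI mice.

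Gabra2 lay on the other side of 0, and did not pass. In E3/Abca1+/+ mice it ranged from 111.1 to 177.1 CPM in sham (median 140.6) and from 121.4 to 221.6 CPM after TBI (median 173.2), and in E3/Abca1+/- mice from 99.7 to 163.4 CPM (median 147.9) and from 143.8 to 190.1 CPM (median 182.6). In E4/Abca1+/+ mice the medians were 127.5 CPM (58.9 to 155.3) and 134.9 CPM (97.0 to 173.3), and in E4/Abca1+/- mice 151.2 CPM (120.3 to 190.2) and 149.2 CPM (105.3 to 190.7). In both E3 genotypes 4 TBI mice lay above all sham mice and the rest within the sham range, and most E4 TBI mice lay within the sham range too. Of 29 TBI mice, 10 were above all sham mice of their genotype and 2 below. The average Gabra2 difference was 0.14 (SE 0.07, adjusted p = 0.1005, 95% interval -0.01 to 0.29).

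Gabra3 and Gabra5 stayed within the sham range in most mice. Gabra3 had a median of 187.2 CPM in sham mice (163.1 to 203.6) and 177.4 CPM in TBI mice (155.1 to 222.6), with an average difference of -0.05 (SE 0.03, adjusted p = 0.09349). Without replicate 8, its highest mouse, Gabra3 fell by 0.06 (adjusted p = 0.01835) on average and by 0.14 (adjusted p = 0.03525) in E4/Abca1+/- mice. With all mice the DESeq2 Wald test also called Gabra3, which fell by 0.06 (adjusted p = 0.02868). Gabra5 had a median of 108.1 CPM in sham mice (89.9 to 141.8) and 112.0 CPM in TBI mice (48.2 to 136.4), with a difference of -0.03 (SE 0.07, adjusted p = 0.7356, 95% interval -0.16 to 0.10).

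**Figure D2:**
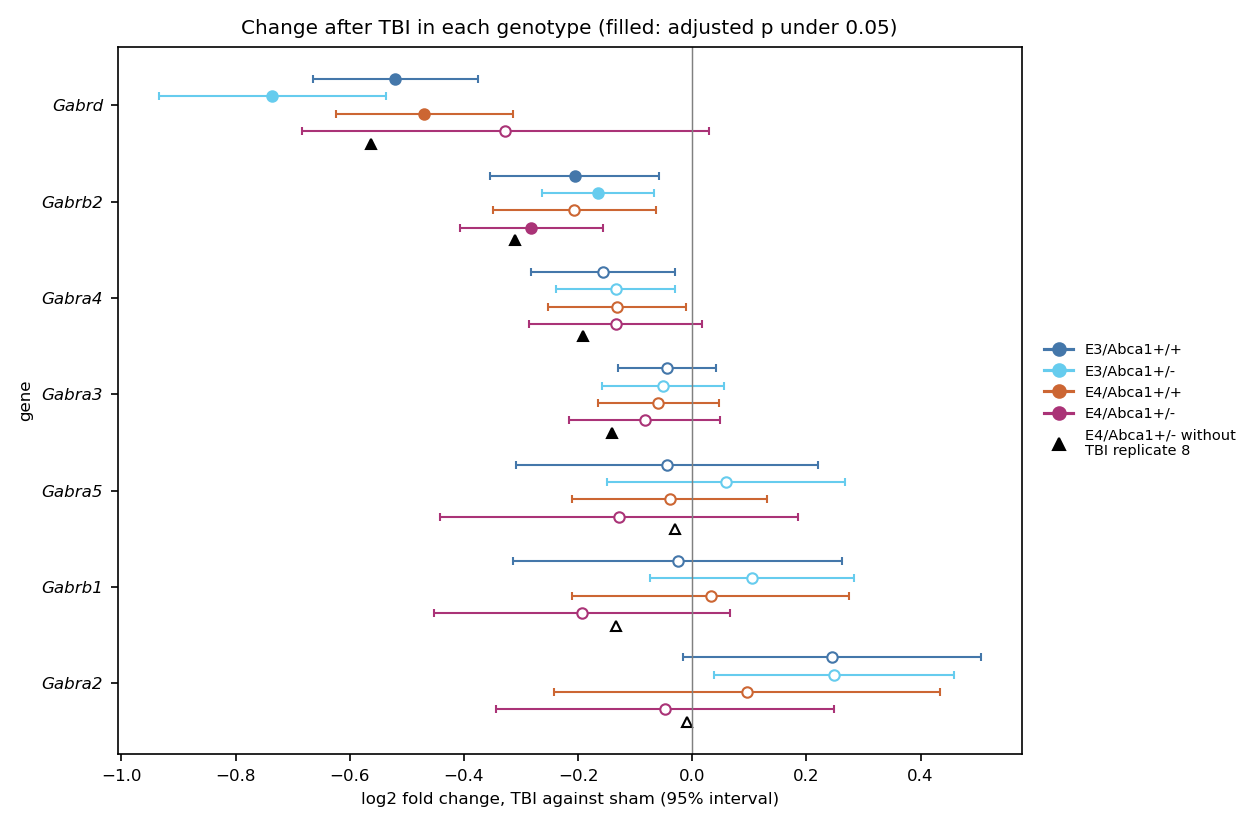
Log2 fold change of each subunit gene after TBI in each of the 4 genotypes, with 95% intervals, filled where the adjusted p was under 0.05, and triangles for E4/Abca1+/- without TBI replicate 8. Gabrd and Gabrb2 lie below 0 in every genotype, Gabra4 between -0.16 and -0.13, and Gabra2 above 0 in 3 of 4.

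Counted together, 3 of 7 members were lower on average and 0 higher, where 24.3% of all 15171 genes were lower and 29.0% higher. Without replicate 8 the count was 4 of 7, where 24.6% of all genes were lower. DESeq2 also called 4 of 7 with all mice, and the added member was Gabra3 in both. By genotype, 2 of 7 members passed in E3/Abca1+/+ (23.2% of genes passed in either direction), 2 in E3/Abca1+/- (23.4%), 1 in E4/Abca1+/+ (13.7%) and 1 in E4/Abca1+/- (34.1%), all of them lower. In the last, 4 passed without replicate 8 (36.8%), again all lower. With all mice no member passed as lower in all 4 genotypes, and 3.09% of genes did. The median change of the 7 members on average was -0.05, and that of all genes 0.01.

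The size of the injury difference was then compared between genotypes by interaction terms over all 58 mice. In edgeR, 0 of 28 tests over the 7 members passed, for injury by isoform (0.00659% of genes passed), injury by Abca1 copies (0.0%), all 3 factors (0.0%) and injury by sex (0.0%). At an unadjusted p under 0.05 the count was 0, where 2.79%, 2.64%, 4.44% and 7.47% of genes had one, and DESeq2 called 0. The smallest unadjusted p was that of Gabrd for injury by isoform, 0.05371, where the fall in E4 mice was smaller than that in E3 mice by 0.24 (SE 0.12, 95% interval 0.00 to 0.48). Without replicate 8 this Gabrd term was 0.13. Without that mouse 4 members had an unadjusted p under 0.05 for injury by sex, as did 8.8% of genes, and 0 passed the adjustment. A difference between genotypes in the response of a subunit gene was thus not detectable with these numbers of mice.

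The number of Abca1 copies was compared next. Gabrb2 was the only member that passed when Abca1+/- and Abca1+/+ mice were compared over both isoforms and both treatments (8.39% of genes were lower). It was lower in Abca1+/- mice by an average of -0.11 (SE 0.03, adjusted p = 0.01031), at 399.3 ± 40.1 CPM (SD, n = 28) against 433.3 ± 50.3 CPM (n = 30). Its mean was lower in 4 of 4 pairwise comparisons, by -0.15 to -0.07, and passed in none of them: 0 of 7 members passed in E3 sham (2.51% of genes passed), E3 TBI (0.18%), E4 sham (0.99%) or E4 TBI mice (1.47%). At an unadjusted p under 0.05 edgeR gave 1 member in E3 sham mice, Gabrb2 (16.7% of genes had one), and 0 in the others (9.07%, 16.0% and 18.4%). DESeq2 called Gabrb2 in E3 sham mice at an adjusted p of 0.0241 and 0 members in the others. Depth moved with this comparison, since 21 of 28 Abca1+/- libraries held more counts than any from Abca1+/+ mice. With all libraries thinned to 4421308 counts the difference in Gabrb2 was -0.13 (adjusted p = 0.01599). Thinning evens depth only, and any other difference between these sets of libraries cannot be told apart from the number of Abca1 copies.

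Between APOE isoforms no member passed. Averaged over Abca1 copies and treatment, 0 of 7 members differed between E4 and E3 mice (15.0% of genes did) by edgeR, 1 had an unadjusted p under 0.05 (28.2% of genes did) and DESeq2 called 0. That member was Gabra2, at 138.8 ± 30.8 CPM in E4 (SD, n = 29) and 158.0 ± 29.3 CPM in E3 mice (n = 29), a difference of -0.19 (SE 0.07, adjusted p = 0.0718). In the pairwise comparisons of E4 with E3, 0 of 7 members passed in Abca1+/+ sham (0.346% of genes passed), Abca1+/+ TBI (0.207%), Abca1+/- sham (5.27%) or Abca1+/- TBI mice (2.87%). The counts at an unadjusted p under 0.05 were 0, 1, 1 and 0, where 8.89%, 7.21%, 23.4% and 18.7% of genes had one, and DESeq2 called 0.

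Between the sexes 1 member passed. Gabrb1 was lower in males than in females by an average of -0.19 (SE 0.06, adjusted p = 0.03669), at 28.6 ± 4.36 CPM (SD, n = 30) against 33.0 ± 4.90 CPM (n = 28), where 5.21% of genes were lower in males. The male mean was the lower in 7 of 8 groups, although the ranges overlapped, 20.8 to 35.9 CPM in males and 18.6 to 42.2 CPM in females. The call was lost with a score of hippocampal against cortical markers as a covariate (difference -0.13, adjusted p = 0.1073), with a thalamic marker score (-0.15, adjusted p = 0.1286) and with libraries thinned to the lowest total (-0.18, adjusted p = 0.2148).

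Since hippocampus and cortex were pooled, the members were set against markers of the tissue parts and of astrocytes. Each score was the mean log2(CPM + 1) of a marker list, and both score and gene were centred on their group means. This takes out the mean difference between groups, but not differences in the extent of injury among the TBI mice of a group. Of 28 relations over the 58 mice, 12 had an adjusted p under 0.05 for Pearson's r by permutation, each with 100000 resamples, for which 1e-05 is the smallest p possible. Gabra5 followed the hippocampal field markers, with r = 0.87 (adjusted permutation p = 0.00014) and rho = 0.74 (adjusted permutation p = 0.00028). The relation held without the 2 mice farthest from the median score (r = 0.72), within sham mice (0.75) and within TBI mice (0.89). Gabrb1 went the same way less closely (r = 0.50, rho = 0.44, adjusted permutation p = 0.00189 and 0.003764; 0.37 without the 2 mice), and Gabra3 the opposite way (r = -0.51, rho = -0.46, adjusted permutation p = 0.006036 and 0.00276; -0.47 without the 2 mice). The Gabrd relation to these markers rested on the 2 mice, at r = -0.53 with them (rho = -0.19, adjusted permutation p = 0.1182 and 0.2673) and -0.05 without. With the cortical layer markers Gabrd had r = 0.64 (rho = 0.46, adjusted permutation p = 0.0001867 and 0.001353), and 0.45 without the 2 farthest mice. Its r was 0.33 within sham and 0.71 within TBI mice. Gabrb2 went the same way (r = 0.50, adjusted permutation p = 0.006524), with r of 0.14 within sham and 0.56 within TBI mice. Gabra5 (r = -0.57, adjusted permutation p = 0.001027) and Gabrb1 (r = -0.56, adjusted permutation p = 0.000784) went the opposite way. Within sham mice their r was -0.45 and -0.28, and within TBI mice -0.59 and -0.63. With the thalamic markers Gabra4 had r = -0.45, Gabra5 -0.35 and Gabrb1 -0.35 (adjusted permutation p = 0.00189, 0.02403 and 0.0312).

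**Figure D3:**
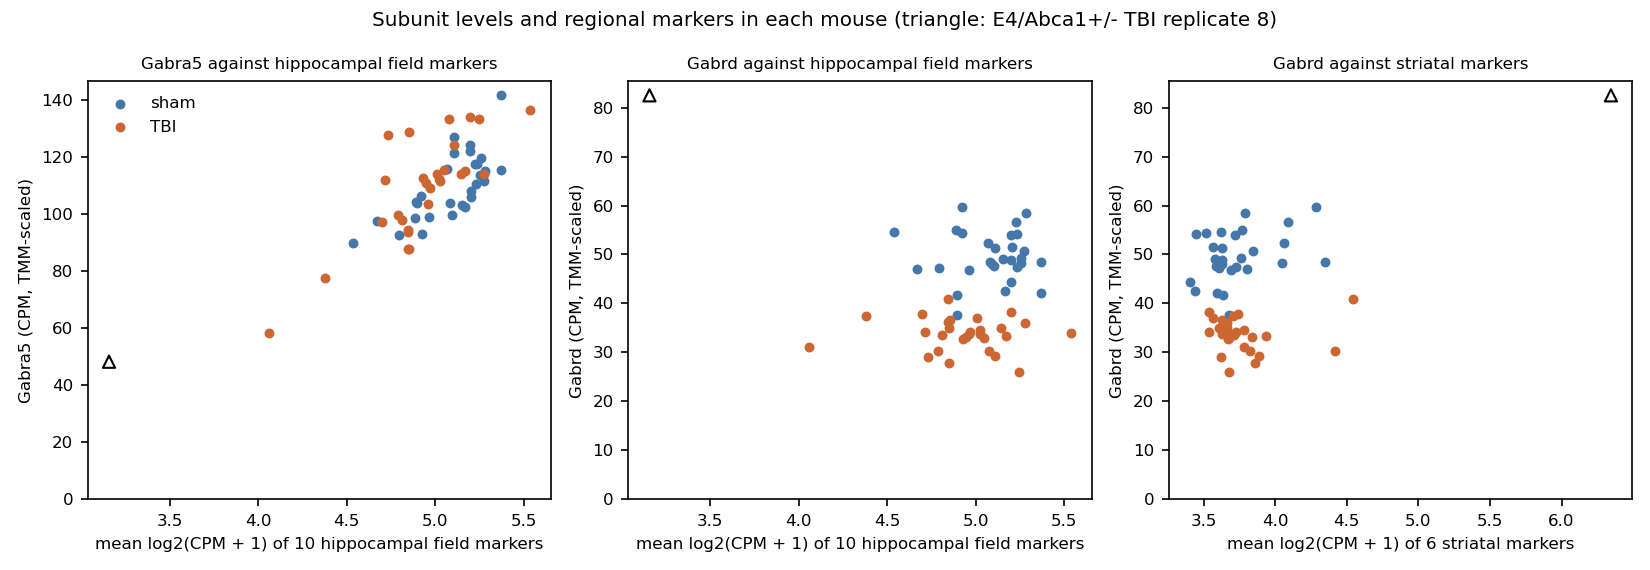
Level of Gabra5 and Gabrd in CPM (linear axes from 0) against the hippocampal or striatal marker score, the mean log2(CPM + 1) of the list, 1 point a mouse without centring, with sham and TBI mice in separate colours and a triangle for E4/Abca1+/- TBI replicate 8. Gabra5 is higher where hippocampal markers are, and the triangle lies at 48.2 CPM of Gabra5 and 82.5 CPM of Gabrd with the highest striatal score.

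Gabrb2 went down as astrocyte markers went up, with r = -0.68 (adjusted permutation p = 0.00014) and rho = -0.59 (adjusted permutation p = 0.00028). The value was -0.58 without the 2 farthest mice, -0.77 within TBI mice and -0.26 within sham mice. Gabra4 did likewise (r = -0.57, rho = -0.53, adjusted permutation p = 0.000784 and 0.00112; -0.50 without the 2 mice). Gabrb2 and Gabra4 also moved together across mice, with r = 0.67 over the 58 mice and also without replicate 8, as centred values that share library and depth. The Gabra5 and Gabrd values, by contrast, had r = -0.50 with that library and -0.12 without it.

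The cell type markers themselves shifted with injury. Summed over the list, astrocyte markers ranged from 4651 to 6106 CPM in sham mice and from 6048 to 10190 CPM in TBI mice, and 7 of 7 rose. Microglia markers ranged from 307.5 to 476.0 CPM and from 564.9 to 1174 CPM, and 7 of 7 rose. Pan-neuronal markers ranged from 8231 to 9267 CPM and from 5955 to 8288 CPM, with 6 of 8 lower and a median change of -0.22, and interneuron markers from 450.6 to 626.7 CPM and from 384.4 to 521.3 CPM, with 7 of 8 lower and a median change of -0.21. In bulk tissue fewer neurons and less subunit RNA per neuron cannot be told apart, and the part of these shifts in the fall of the subunit genes was not tested. Gabrd fell by 0.50, against a median change of -0.22 for the pan-neuronal markers, Gabrb2 by 0.21 and Gabra4 by 0.13.

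Markers of the tissue parts moved too. Of 8 cortical layer markers 5 were lower and 1 higher (median -0.32), of 10 hippocampal field markers 4 were lower and 2 higher (median -0.10), and of 6 thalamic markers 4 were higher and 2 lower (median 0.31). With the score of hippocampal against cortical markers in the model, the average falls were 0.47 (adjusted p = 5.619e-13) for Gabrd, 0.20 (adjusted p = 9.943e-07) for Gabrb2 and 0.13 (adjusted p = 0.000755) for Gabra4. The same covariate brought Gabra5 past the threshold, with a fall of 0.13 (adjusted p = 0.005816). With the thalamic score Gabra2 rose by 0.18 (adjusted p = 0.03528). Neither gene passed without the covariate. Markers in both scores shifted with injury themselves, so injury and tissue make-up cannot be told apart in these fits. Of 6 striatal markers 0 passed in edgeR or DESeq2 and 1 had an unadjusted p under 0.05, of 6 oligodendrocyte markers 2 were higher, and of 6 endothelial markers 3 were higher.

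The rest of the GABA system was read from lists of related genes, as averages over the genotypes. Of all genes, 24.3% were lower and 29.0% higher on that average. Of the other 7 GABA-A and GABA-rho subunit genes in the table, 4 were lower and 1 higher, with changes of -0.46 to 0.15 and a median of -0.08. Those that did not pass had low levels, with means of 0.64 and 0.60 CPM in sham mice. Of 5 genes for the metabotropic GABA-B receptor, 3 were lower and 1 higher (median -0.11). Both receptor subunits fell, Gabbr1 by 0.11 (adjusted p = 3.088e-06) and Gabbr2 by 0.20 (adjusted p = 1.148e-07), and of the auxiliary proteins that set its kinetics Kctd16 fell by 0.32 while Kctd12 rose by 0.26. Of 8 genes for GABA synthesis, vesicle loading, uptake and breakdown, 4 were lower and 2 higher (median -0.06). Gad1, which encodes a GABA-synthesizing enzyme, fell by 0.28 (SE 0.03, adjusted p = 4.184e-14), from 451.4 ± 24.6 CPM (SD, n = 29) to 371.0 ± 28.6 CPM (n = 29). The vesicular GABA transporter gene Slc32a1 fell by 0.17 (adjusted p = 0.003648), and Slc6a13, a GABA transporter of meninges and vessels, rose by 0.41 (adjusted p = 0.01174). Abat, for the enzyme that breaks GABA down, passed as higher by 0.05 (adjusted p = 0.04328) with all mice and not without replicate 8 (adjusted p = 0.05405), which left 1 higher gene in the list.

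Of 14 genes for anchoring and trafficking of GABA-A receptors, 9 were lower and 2 higher (median -0.10). Iqsec3, a guanine exchange factor of inhibitory synapses, fell by 0.30 (adjusted p = 1.782e-15), and the gephyrin gene Gphn by 0.12 (adjusted p = 0.000193). Gabarap, which carries receptors to the membrane, rose by 0.20 (adjusted p = 2.601e-06), and Rdx, encoding the radixin anchor of α5 receptors outside synapses, rose by 0.13 (adjusted p = 6.72e-07). Of 7 genes that set the chloride gradient on which these receptors act, 5 were lower and 1 higher (median -0.13). The chloride exporter gene Slc12a5 (KCC2) fell by 0.26 (SE 0.03, adjusted p = 1.822e-10), from 741.5 ± 52.2 CPM to 618.3 ± 62.9 CPM (SD, n = 29 each), and the importer gene Slc12a2 (NKCC1) rose by 0.14 (adjusted p = 0.007515). Bulk tissue does not say in which cells these levels changed, and the part of the lower neuronal and higher astrocyte markers was not tested.

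Of 8 genes for activity-dependent regulators of subunit genes, 6 were lower and 1 higher (median -0.61). Egr3, a transcription factor known to act on the Gabra4 promoter, fell by 0.89 (SE 0.07, adjusted p = 3.924e-16), Egr1 by 0.99 (adjusted p = 1.486e-10) and the neurotrophin gene Bdnf by 0.55 (adjusted p = 5.172e-09), while its receptor gene Ntrk2, also made by astrocytes, rose by 0.33 (adjusted p = 2.365e-12). Astrocyte markers were higher and pan-neuronal markers lower in the same mice, and their part was not tested.

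**Figure D4:**
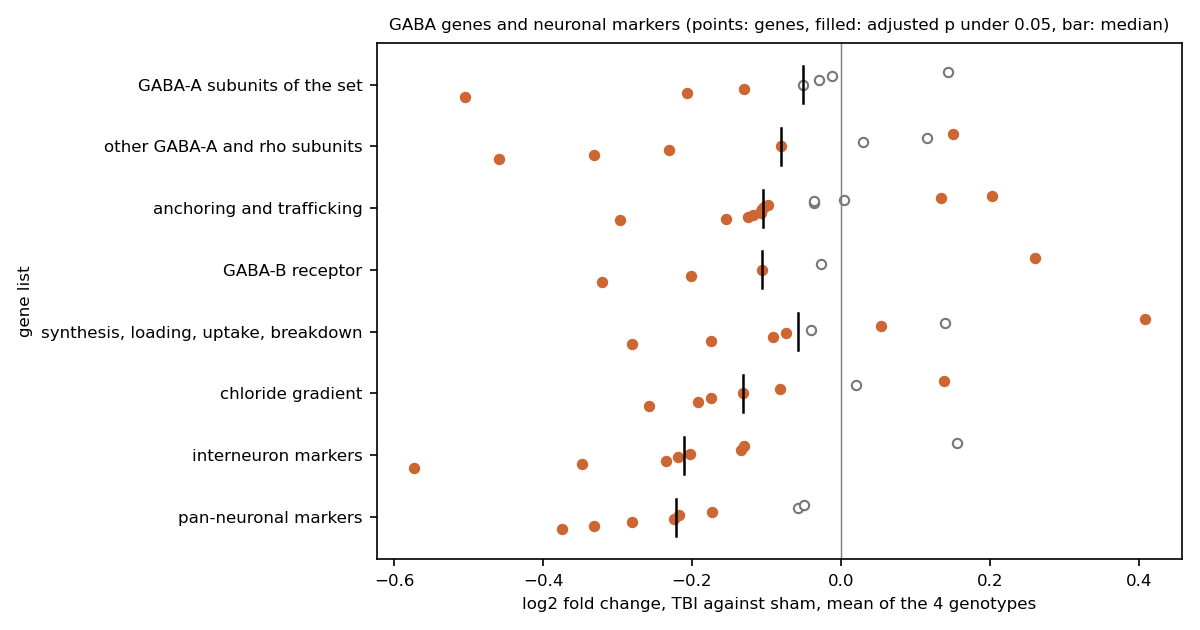
Log2 fold change after TBI, averaged over the 4 genotypes, of every gene in the subunit list, in 5 lists for the rest of the GABA system and in 2 neuronal marker lists, with the list median as a bar and genes with an adjusted p under 0.05 filled. The 7 subunit genes span -0.50 (Gabrd) to 0.14 (Gabra2) around a median of -0.05, and the pan-neuronal markers have a median of -0.22.

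The genes whose levels were most like each member's across the 58 mice, after centring on group means, were named by Pearson's r among 14380 genes with a mean of at least 1 CPM. For Gabrd they were Stx1a (0.85), Camk2n1 (0.84) and Lamp5 (0.82), and without replicate 8 their r fell to 0.75, 0.60 and 0.61. For Gabrb2 the nearest 2 were other GABA-A subunit genes (both 0.81), followed by Srpk2 (0.80). For Gabra4 they were Mtpn (0.86), Abi2 (0.80) and Ppp3cb (0.80), and for Gabra5 St6galnac5 (0.92), Crym (0.90) and Scn3b (0.90). For Gabrb1 they were Tnr (0.87), Dok6 (0.87) and Tmem178b (0.87), and for Gabra2 Caln1 (0.59), Eml6 (0.56) and Mturn (0.55). For Gabra3 they were Prkar2b (0.68), Car10 (0.67) and Ppp2r2b (0.63). Without replicate 8 these had r of 0.57, 0.53 and 0.58, at ranks 10, 23 and 7, and Gap43 came first (0.62), so the Gabra3 order also rests on that library. The values describe likeness over mice that share library, depth and tissue make-up.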

How the data were processed

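RNA from hippocampus and cortex of 58 mice was sequenced on an Illumina HiSeq instrument. The deposited values are raw counts of reads per gene. Per the labels, the authors' notes name Subread 1.5.0 with featureCounts, edgeR and the mm10 build; the annotation and strand setting are not given in the sources used here. The table held 15171 genes after removal of 2 blank lines, and 23 symbols turned into dates were restored. No 2 mice of a group held identical counts.

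Counts were scaled by TMM and filtered by filterByExpr within each comparison (at least 14014 genes tested), and tested two-sided with the quasi-likelihood test of edgeR 4.0.16 (R 4.3.3) at an adjusted p under 0.05. Pairwise comparisons used the 2 groups alone, and averages and interactions all 58 mice. DESeq2 1.42.0, other filters, thinning and covariates were alternatives, and those without 1 or 2 libraries or with the thalamic score were added after seeing the data. Scripts were tested on simulated data. Exon lengths came from GENCODE vM21. All members were named, with up to 4 genes of each other list by smallest p and the 3 genes most like each member; the genes named from the lists for the GABA system were picked for their roles with their values seen. Members and lists were chosen with earlier results of these data known. The other GABA-A subunit genes are not reported here by name.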

Additional observations from a re-analysis of the deposited data

Results flagged for a closer look

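The levels of the 7 subunit genes in the 8 groups of mice gave 56 sets of values. In 8 of the 56, which covered all members but Gabra5, the highest or lowest mouse lay apart from the others by Dixon's test, and chance marks about 1 set in 20. Gabrd in E4/Abca1+/- TBI replicate 8 was at 82.5 CPM against 38.2 CPM for the next mouse, in the library with low hippocampal and high striatal markers. Gabrd in E4/Abca1+/+ sham replicate 2 was at 37.6 CPM, with the next at 47.2 CPM. Gabra2 was low in E3/Abca1+/- sham replicate 3, at 99.7 CPM with the next at 144.8 CPM, and in E4/Abca1+/+ sham replicate 4, at 58.9 CPM with the next at 116.5 CPM. Gabra3 was low in E4/Abca1+/- sham replicate 5, at 169.7 CPM (next 187.5 CPM), and Gabra4 in E3/Abca1+/+ TBI replicate 8, at 106.7 CPM (next 133.4 CPM), the library with the second lowest hippocampal score. Gabrb1 was low in E4/Abca1+/- sham replicate 1, at 25.1 CPM (next 31.5 CPM), and Gabrb2 was high in E4/Abca1+/+ sham replicate 1, at 493.7 CPM (next 462.4 CPM). Of 28 tests of an injury difference between isoforms, Abca1 copies or sexes in these genes, 0 passed in edgeR or DESeq2 and 0 had an unadjusted p under 0.05.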

How the results depend on the processing

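No paired analysis was possible because the labels carry no replicate numbers shared between groups. Of 1470 values of members recomputed over 11 settings, 1433 kept their direction where called and their side of the threshold, 29 passed only under the alternative, 7 passed only as first tested and 1 reversed. The average falls of Gabrd (-0.56 to -0.47), Gabrb2 (-0.22 to -0.20) and Gabra4 (-0.14 to -0.10) passed under every alternative run. The reversal was Gabra5 in E3/Abca1+/- mice, which with the regional score as a covariate fell by 0.23 (adjusted p = 0.0316) after TBI. Its mean there was 108.7 CPM in sham and 113.2 CPM in TBI mice, and markers in that score shifted with injury themselves. Members called in E3/Abca1+/+ went from 2 to 1 with thinning, and in E3/Abca1+/- from 2 to 1 with thinning or with 1 model for the 58 mice. Both E3 counts went up to 3 with the regional or the thalamic score, and in E3/Abca1+/- also with DESeq2 size factors or the DESeq2 Wald test. The gains were Gabra4, except for Gabra2 in E3/Abca1+/- with the thalamic score, and Gabra4 and Gabra5 there with the regional score, where Gabrb2 was lost. The average count went from 3 to 4 with DESeq2 size factors, the DESeq2 Wald test, without replicate 8 or without the 2 libraries (Gabra3 added), with the regional score (Gabra5) and with the thalamic score (Gabra2, higher). For E4/Abca1+/+ the count went from 1 to 2, with Gabrb2 added, under the DESeq2 Wald test, no filter, the 58-mouse model, thinning, the regional score and sex as a covariate. In E4/Abca1+/- it went from 1 to 2 with the 58-mouse model, to 3 with the regional score and to 4 without replicate 8 or without the 2 libraries lowest in hippocampal markers, both of which rest on fewer mice. For Abca1 copies, the count in E3 sham mice went from 0 to 1 with DESeq2, and the average from 1 to 2 with the regional score, which added Gabrd, higher by 0.13 in Abca1+/- mice. For sex the count went from 1 to 0 with thinning, the regional score and the thalamic score. Apart from the removal of mice or counts, the cause was not tested. Gabra5 in sham mice was at 41.1 CPM per kb with its longest transcript in place of all exons. DESeq2 size factors moved the median injury change of all genes by -0.01 (log2). Depth limits Gabrb1 most, at 124 counts in its lowest library.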
